A study of Mus musculus with 12 samples.

Results

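The 9 genes described here encode 6 signal transducers and activators of transcription (Stat2, Stat3, Stat4, Stat5a, Stat5b and Stat6) and 3 Janus kinases (Jak1, Jak2 and Tyk2), and the measurement is the accessibility of the DNA around them in macrophages of the mouse brain. Members were chosen by name. Every ATAC-seq peak whose nearest start site in the deposited annotation belonged to 1 of these genes was taken, which gave 49 of 60288 peaks in the table of untreated mice and 38 of 54953 peaks in the table of LPS-treated mice. ATAC-seq reads where a transposase can insert adapters into open chromatin, and a peak is a stretch where the inserted tags pile up over the surrounding DNA.

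The cells came from C57BL/6J bone marrow chimeras of wild-type genotype, irradiated with 950 cGy and reconstituted with congenic wild-type marrow. CD45.1 cells, the progeny of the graft, and CD45.2 cells, the host microglia, were sorted from the same brains, so the host cells had been irradiated in place and the graft cells had not. Both gates took CD11b+ cells with low CD45 and without Ly6C/G. The labels give 3.5 or 9 months between irradiation and analysis, and the text of the study names the longer interval. The 4 groups hold 3 libraries each: CD45.1 and CD45.2 cells of untreated mice 4, 5 and 6, and CD45.1 and CD45.2 cells of mice 1, 2 and 3, taken 12 h after an intraperitoneal injection of 2.5 mg/kg LPS, the endotoxin of Gram-negative bacteria.

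Cytokine receptors without enzyme activity of their own carry Janus kinases on their cytoplasmic tails. Ligand binding brings the kinases together, they phosphorylate the receptor, and STAT proteins dock there, are phosphorylated, pair up and move into the nucleus to bind DNA. STAT2 acts downstream of type I interferon, STAT3 downstream of the IL-6 and IL-10 families, STAT4 downstream of IL-12, STAT5A and STAT5B downstream of GM-CSF, IL-3 and IL-2, and STAT6 downstream of IL-4 and IL-13. JAK1 and TYK2 serve interferon and many interleukin receptors, and JAK2 serves GM-CSF, IL-3 and interferon-gamma receptors.

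Libraries of untreated mice held 8392877.5 to 9107770 tags and those of LPS-treated mice 2966364 to 6556594.5, and the share of tags in the merged peaks was lowest in CD45.2 cells of untreated mouse 4, at 18.4%. Marker genes followed the labels in part. In untreated mice tags summed over the peaks of Sall1, a transcription factor of microglia, averaged 1042 in CD45.2 and 111.4 in CD45.1 cells, and those of Ms4a7, a marker of marrow-derived macrophages, 61.1 and 160.5. Of 10 microglia markers 2 passed the test as higher in CD45.2, and of 10 marrow macrophage and monocyte markers 5 passed as higher in CD45.1. Over all gene sums 14.8% passed, in either direction. The other markers did not pass, among them P2ry12 (264.6 in CD45.2 and 268.2 in CD45.1) and Ccr2 (51.66 and 61.07). After LPS 1 and 3 markers of these lists passed in the same directions, where 7.07% of all gene sums passed. In untreated mice neuron and astrocyte genes summed to 435.2 to 512 normalized tags in the CD45.2 and 207 to 244.7 in the CD45.1 libraries, with 4 of 6 tested passing as higher in CD45.2. T and NK cell genes summed to 1203 to 1503 in CD45.2 and 1015 to 1141 in CD45.1, with peaks at 6 of 12 genes and none at Cd3e, Cd3g or Cd8a. Klrb1c, an NK cell receptor gene, supplied most of that sum (865.1 in CD45.2 and 677.7 in CD45.1) and passed as higher in CD45.2, as did Lck, while Cd3d passed as higher in CD45.1 (105.5 and 64.97; adjusted p = 0.0084, DESeq2). Of 6 B cell genes 3 had peaks. Ms4a1 passed as higher in CD45.1 (103.3 in CD45.1 and 31.7 in CD45.2, adjusted p = 5.4e-10, DESeq2), and Ebf1 as higher in CD45.2 (26.4 and 53.5). The part of such other cells in the results below was not tested. In sorted pools, more cells with an open site and a more open site per cell cannot be told apart.

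The sequences under some of the sites on which the results turn are given first, as 200 bases around the peak centre on the plus strand of mm9. Capitals mark matches, on either strand, to any of 6 motifs: GAS (TTCNNNGAA), the sequence bound by STAT pairs; the core of the interferon-stimulated response element (GAAANNGAA), bound by complexes with STAT2; PU.1 (GAGGAAGT); AP-1 (TGANTCA); C/EBP (TTGCNNAA); and RUNX (TGTGGTT).
Stat5b +2356 (chr11:100709444-100709643): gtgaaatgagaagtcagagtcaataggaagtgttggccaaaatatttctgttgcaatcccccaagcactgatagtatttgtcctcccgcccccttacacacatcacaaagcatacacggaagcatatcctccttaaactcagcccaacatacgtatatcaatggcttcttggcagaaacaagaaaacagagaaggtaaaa
Stat5b +7921 (chr11:100675864-100676063): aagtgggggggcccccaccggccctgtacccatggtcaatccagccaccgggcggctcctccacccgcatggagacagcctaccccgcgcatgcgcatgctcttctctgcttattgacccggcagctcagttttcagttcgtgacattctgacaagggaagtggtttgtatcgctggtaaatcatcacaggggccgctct
Jak2 -41674 (chr19:29284520-29284719): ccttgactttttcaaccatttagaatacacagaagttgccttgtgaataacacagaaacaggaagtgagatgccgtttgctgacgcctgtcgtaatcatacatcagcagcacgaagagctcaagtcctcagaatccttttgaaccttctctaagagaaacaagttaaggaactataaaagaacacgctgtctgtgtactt
Jak2 -10100 (chr19:29316094-29316293): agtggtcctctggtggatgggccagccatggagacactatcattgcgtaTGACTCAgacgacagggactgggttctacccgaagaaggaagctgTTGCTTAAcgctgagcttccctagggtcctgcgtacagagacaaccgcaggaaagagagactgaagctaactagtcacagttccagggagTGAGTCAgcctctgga
Stat3 -12826 (chr11:100813581-100813780): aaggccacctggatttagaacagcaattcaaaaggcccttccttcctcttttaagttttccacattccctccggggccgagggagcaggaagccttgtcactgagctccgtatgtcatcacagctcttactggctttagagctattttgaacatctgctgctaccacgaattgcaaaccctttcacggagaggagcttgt
Each name gives the gene and the distance in bp from the peak to the nearest annotated start, negative upstream. The Jak2 -10100 window, which was higher after LPS, held 2 AP-1 matches and 1 C/EBP match. The other 4 windows held none of the 6 words, which says only that these letters are absent from these windows.

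Over all members each word was found in a few windows, given here beside its share of all windows, and a difference from that share was not tested. GAS was found in 2 of the 49 untreated windows, against 5.37% of all 60288 windows of the same length, and in 2 of the 38 LPS windows, against 5.74% of all. The interferon-response core was found in 4 untreated and 2 LPS windows of members (8.33% and 7.54% of all windows), and PU.1 in 5 and 4 (9.45% and 8.72%). AP-1 was found in 4 and 3 (8.11% and 13.4%), C/EBP in 6 and 4 (9.82% and 12.2%), and RUNX in 3 and 3 (5.65% and 5.82%).

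The members differed in how many peaks they had. Jak1 had 18 peaks in the untreated and 11 in the LPS table, Stat6 had 6 in each, Stat5b had 6 and 4, and Jak2 had 6 and 5. Tyk2 and Stat3 had 4 in each table, Stat5a had 2 in each, Stat4 had 2 and 1, and Stat2 had its promoter alone. Introns held 28 of the 49 untreated peaks (57.1%, against 38.9% of all peaks), promoters 10 (20.4%, against 22.2%) and intergenic DNA 11 (22.4%, against 32.6%). Stat4, which in the textbook belongs to lymphocytes, was the member without a promoter peak in either table, and its peaks lay in intron 2.

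Promoters of the other 8 members were open in both populations of untreated mice, and none of their 10 peaks passed the test between them, where 5.01% of all tested promoter peaks passed. The values are tags per peak after scaling of the 6 libraries of a table, and n is 3 libraries per group throughout. The Jak1 promoter (chr4:100937847-100937992) read 206.2, 191.7 and 228.7 in CD45.1 and 242.5, 195.1 and 185.8 in CD45.2 cells of mice 4, 5 and 6. The Stat3 promoter (chr11:100800819-100800935) read 166.0, 155.2 and 213.5 in CD45.1 and 167.1, 147.8 and 133.1 in CD45.2 cells. The groups overlapped at both. The promoter of Stat2, the interferon mediator, averaged 184.8 ± 8.31 (SD) in CD45.1 and 181.4 ± 23.8 in CD45.2 cells, and that of Tyk2, a kinase of the interferon receptor, 155.5 ± 15.9 and 150.2 ± 6.71. The main Jak2 promoter peak averaged 153.0 ± 20.6 and 144.6 ± 19.8. The promoters of Stat5a and Stat6 were lower, at 114.8 ± 11.9 and 108.6 ± 3.68 for Stat5a and 90.6 ± 9.02 and 91.4 ± 3.43 for Stat6, and the taller Stat5b promoter was lower again, at 64.3 ± 8.80 and 56.6 ± 4.73. In each of these the 2 populations overlapped. Over the 10 promoter peaks, among them both alternative starts of Stat5b, the log2 fold change of CD45.1 over CD45.2 ran from -0.0085 to 0.26, and the widest 95% intervals reached from -0.50 to 0.95, so a 2-fold difference lay outside every interval. The lowest adjusted p of DESeq2's Wald test among them was 0.39.

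**Figure D1:**
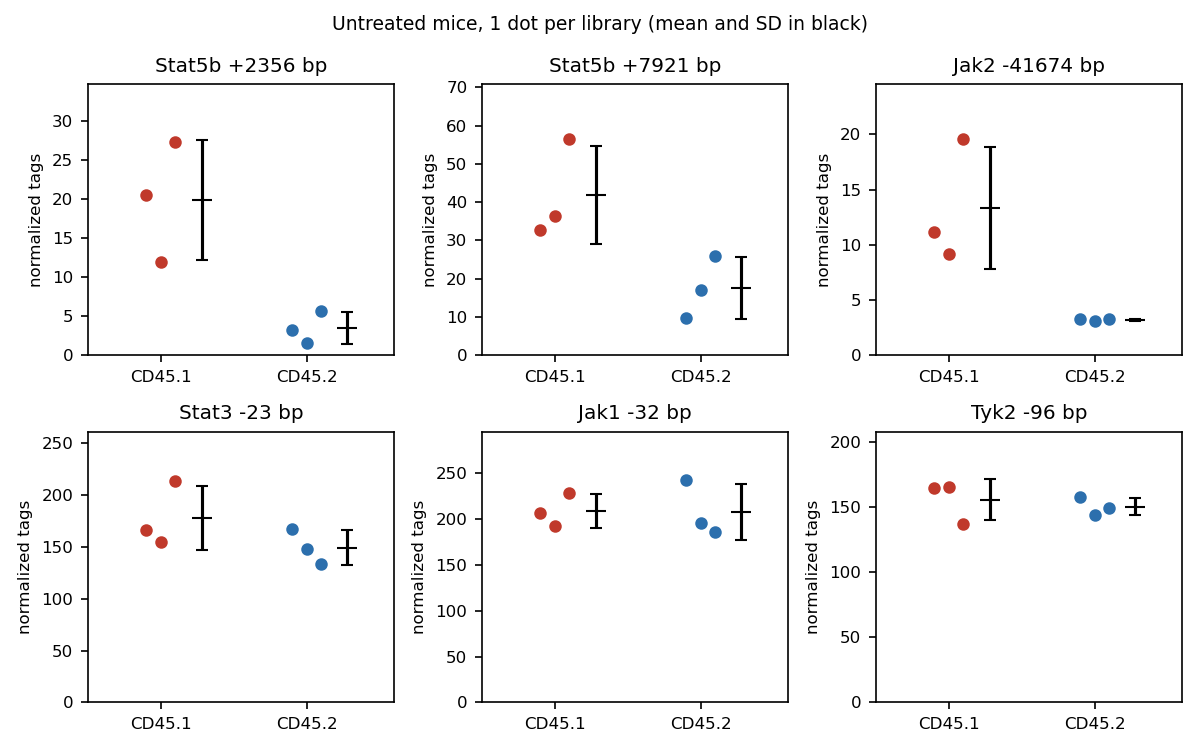
Normalized tags (y axis, from 0) at 6 peaks in untreated mice, 1 dot per library, for CD45.1 (red) and CD45.2 (blue) cells, with the mean and SD of 3 libraries in black. The 3 upper peaks are drawn because they passed this comparison, so that every CD45.1 library lies above every CD45.2 library there is a description. The promoters of Stat3, Jak1 and Tyk2, drawn whatever their result, overlap.

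The member peaks that differed between graft and host cells of untreated mice lay in Stat5b and near Jak2, and were higher in CD45.1. All were among the 37 tested member peaks away from promoters, where 17.7% of such peaks over the genome passed. Of the 47 member peaks with more than 10 tags in a library, which alone could be tested, 1 met the limits of the study (adjusted p under 0.01 and over 4-fold) as higher in CD45.1, where 3.78% of all 59170 tested peaks did, and 0 as higher in CD45.2, where 2.65% of all did. At an adjusted p under 0.05, 3 members were higher in CD45.1 (8.54% of all peaks) and 0 in CD45.2 (6.32% of all peaks). DESeq2 gave an unadjusted p under 0.05 to these 3 members and to no other, while edgeR, which also passed 3, gave it to 10. The median absolute log2 fold change was 0.158 over the members and 0.33 over all peaks tested.

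The peak that met both limits lies in an intron of Stat5b, a mediator of GM-CSF signals in myeloid cells, 2356 bp inside the upstream start (chr11:100709489-100709598). It read 20.5, 11.9 and 27.2 in CD45.1 and 3.28, 1.55 and 5.68 in CD45.2 cells. Every CD45.1 library was above every CD45.2 library. The peak was in the lists of all 3 CD45.1 libraries and of 0 CD45.2 libraries and passed the filter of 10 tags through CD45.1 alone. The group where it is high thus put it among the tested peaks, and its listing, its separation and the p-values below are a description. CD45.1 exceeded CD45.2 by a log2 fold change of 2.49 (SE 0.67, adjusted p = 0.0024, DESeq2). With the mouse as a block the adjusted p was 0.014, with scaling by total tags 0.0102, and it was 0.029 without CD45.1 mouse 4, 0.040 without CD45.1 mouse 6, 0.074 without CD45.2 mouse 5 and 0.011 without CD45.2 mouse 6, each above the limit of 0.01. No merged peak of the LPS table touched it, nor did any list of the 6 LPS libraries.

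The second Stat5b site lies 7921 bp inside the downstream start, in intron 1 (chr11:100675888-100676038). It read 32.7, 36.5 and 56.6 in CD45.1 and 9.83, 17.03 and 25.97 in CD45.2 cells, and the groups did not overlap. The log2 fold change was 1.18 (SE 0.39, adjusted p = 0.019, DESeq2). The adjusted p of DESeq2 became 0.23 when libraries were scaled by total tags, at a log2 fold change of 1.09. That adjusted p was 0.21 without CD45.1 mouse 6, 0.068 without CD45.2 mouse 4 and 0.16 without CD45.2 mouse 5. The log2 fold changes without these libraries were 0.92, 0.94 and 1.13. Other Stat5b peaks, at +16904 and -4222, had log2 fold changes of -0.03 and 0.23.

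The Jak2 site lies 41674 bp upstream of the gene in intergenic DNA (chr19:29284567-29284671). It read 11.2, 9.13 and 19.6 in CD45.1 and 3.28, 3.10 and 3.25 in CD45.2 cells, again without overlap. It was listed in 3 of 3 CD45.1 and 0 of 3 CD45.2 libraries and likewise passed the filter through CD45.1 alone, so this and the p-values below are a description too. The log2 fold change was 2.05 (SE 0.73, adjusted p = 0.035, DESeq2). With the mouse as a block the adjusted p was 0.15, and without any 1 of the 6 libraries it lay between 0.053 and 0.26, so the call holds only with all 6.

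Members without a passing peak are represented by the peak with their lowest adjusted p. A Stat6 site 6208 bp upstream read 37.3, 40.2 and 32.7 in CD45.1 and 22.9, 21.7 and 27.6 in CD45.2 cells, without overlap, and did not pass (log2 fold change 0.61, adjusted p = 0.28, DESeq2). A Jak1 site 18853 bp upstream read 26.1, 9.13 and 21.8 against 9.83, 10.8 and 8.93, with overlap (0.94, adjusted p = 0.28). The Tyk2 site at +5490 and the Stat4 site at -3962 had log2 fold changes of -0.16 (adjusted p = 0.80) and 0.16 (adjusted p = 0.91). For Stat2, Stat3 and Stat5a the peak was the promoter. Groups also lay apart as higher in CD45.2, at Jak1 +90743, +421 and -26911. Their log2 fold changes were -0.74, -0.68 and -0.37, and none passed (adjusted p 0.38, 0.41 and 0.34, DESeq2). The Jak2 promoter peak at -546 lay apart as higher in CD45.1 and did not pass (0.25, adjusted p = 0.80). Separation thus went both ways, and how often peaks of the genome separate was not tested.

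**Figure D2:**
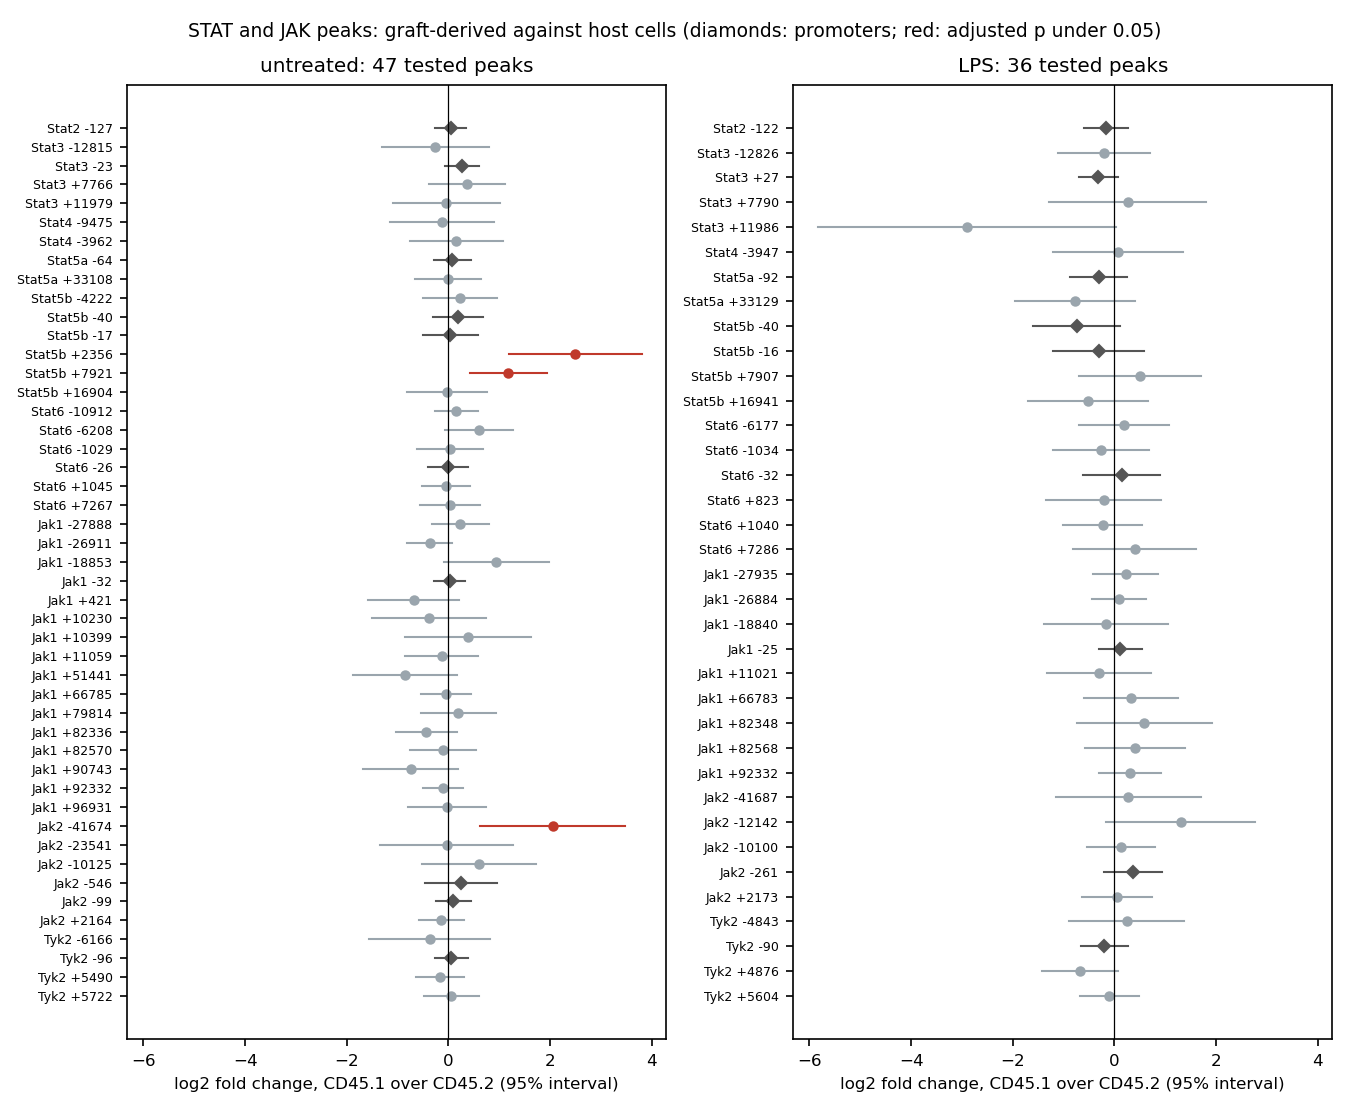
Log2 fold change of CD45.1 over CD45.2 (x axis) with its 95% interval for each tested member peak, in rows by gene and distance in bp, in untreated mice (left, 47 peaks) and after LPS (right, 36 peaks). Diamonds are promoters and red marks an adjusted p under 0.05: 3 untreated peaks, at Stat5b and Jak2, and no peak after LPS.

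Summed over all peaks of a gene, none of the 9 members passed in untreated mice, where 14.8% of 16174 genes passed. Stat5b came nearest. Its sum was 239.3 ± 27.3 (SD) in CD45.1 and 189.5 ± 23.9 in CD45.2 cells, a log2 fold change of 0.32 with an adjusted p of 0.17 (DESeq2), and it was the 1 member with an unadjusted p under 0.05, by DESeq2 as by edgeR. Jak1 summed to 681.5 ± 29.7 in CD45.1 and 746.2 ± 20.9 in CD45.2 cells, at a log2 fold change of -0.13 and an adjusted p of 0.47. Stat4 summed to 29.7 ± 2.05 and 29.0 ± 6.13.

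After LPS no member peak passed the test between the populations. Of 36 tested peaks 0 passed in either direction by DESeq2, where 4.08% of all 49180 peaks passed as higher in CD45.1 and 2.38% as higher in CD45.2, and by the 4-fold rule 1.78% and 1.19%. DESeq2 gave 0 members an unadjusted p under 0.05, and edgeR gave 4 but adjusted none below 0.05. Depth was lower here, with a median of 17.3 tags per library in member peaks against 31.4 in the untreated table. The Stat5b +7907 site read 17.8, 7.83 and 9.44 in CD45.1 and 3.50, 8.72 and 11.3 in CD45.2 cells of mice 1, 2 and 3, and the groups overlapped, at a log2 fold change of 0.50 (95% interval -0.71 to 1.71). The Jak2 -41687 site read 9.70, 3.91 and 7.55 against 3.50, 7.85 and 5.94, at 0.27 (-1.15 to 1.69). Both intervals overlap the untreated intervals of the same sites, 0.42 to 1.94 for Stat5b and 0.62 to 3.47 for Jak2.

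Of the 9 promoter peaks none passed after LPS, where 2.2% of all tested promoter peaks did. The Jak1 promoter averaged 128.0 ± 21.9 in CD45.1 and 119.6 ± 24.3 in CD45.2 cells, the Stat3 promoter 114.8 ± 8.40 and 144.6 ± 16.9, the Stat2 promoter 91.1 ± 10.8 and 101.6 ± 16.9, and the Tyk2 promoter 74.8 ± 6.50 and 85.2 ± 13.1. The Stat5a promoter averaged 46.1 ± 13.3 and 58.5 ± 5.46, the Jak2 promoter 50.1 ± 5.22 and 38.9 ± 5.00, and the Stat6 promoter 25.5 ± 6.35 and 22.96 ± 2.165. At the downstream Stat5b promoter CD45.1 read 14.55, 13.05 and 13.21 and CD45.2 21.02, 22.68 and 24.34 without overlap, a log2 fold change of -0.75 that did not pass (adjusted p = 0.44, DESeq2). A Tyk2 site at +4876 had the same order without overlap, at 19.9 ± 4.31 and 31.1 ± 4.00 (-0.68, adjusted p = 0.40). The Stat3 promoter had that order without overlap too (-0.32, adjusted p = 0.47). The Jak2 promoter (0.36, adjusted p = 0.65) and Jak1 +92332 (0.31, adjusted p = 0.75) were higher in CD45.1 without overlap. Separation went both ways here too, none of these peaks passed, and how often peaks of the genome separate was not tested. The lowest adjusted p of any member was 0.33, at the Stat3 site +11986, where CD45.1 read 0, 0 and 1.89 and CD45.2 0, 5.23 and 8.31.

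Gene sums after LPS did not pass for any of the 9 members either, where 7.07% of 15722 genes did, and 0 had an unadjusted p under 0.05 by DESeq2 or by edgeR. Stat3 summed to 141.2 ± 15.8 in CD45.1 and 174.6 ± 17.1 in CD45.2 cells (adjusted p = 0.46, DESeq2). Jak2 summed to 134.8 ± 15.8 and 110.8 ± 4.20 (adjusted p = 0.52).

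**Figure D3:**
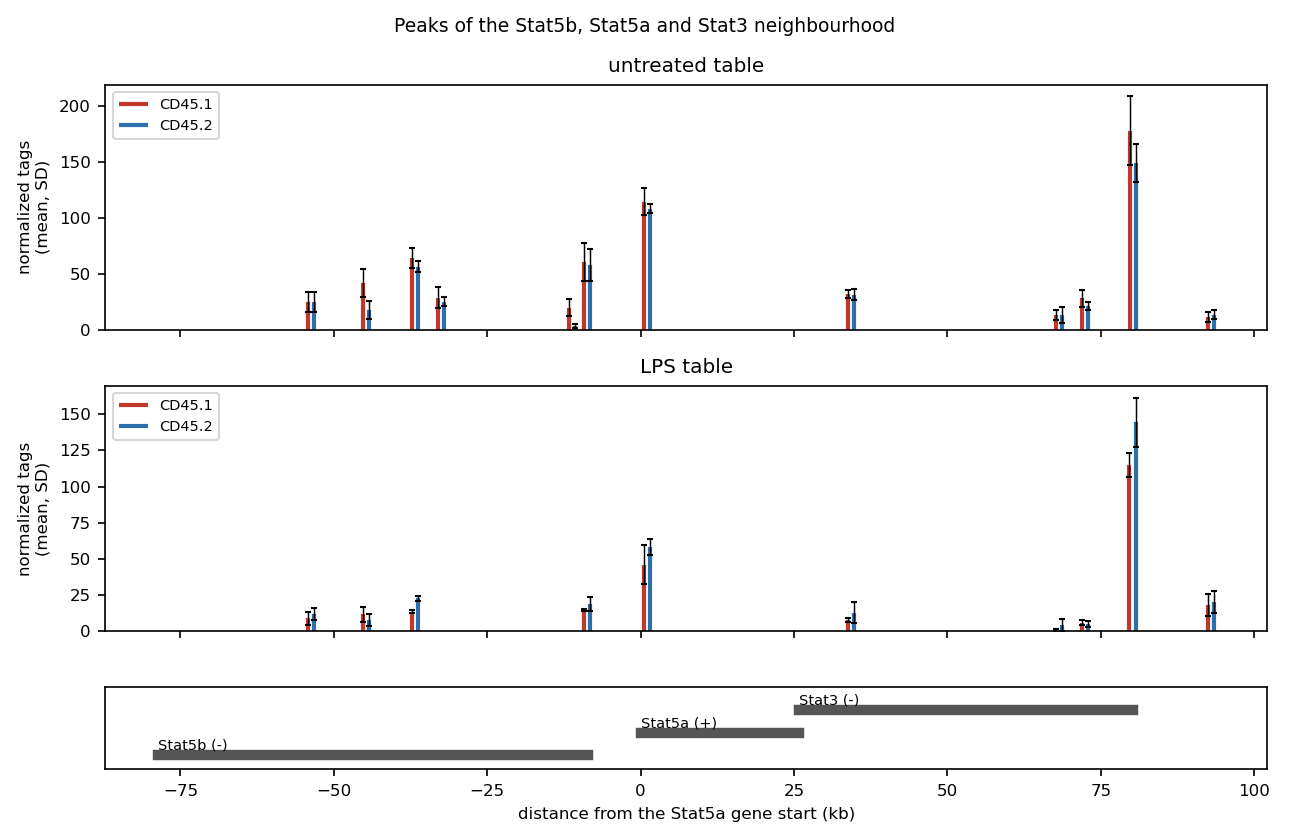
Mean normalized tags with SD (y axis) of the tested peaks named for Stat5b, Stat5a and Stat3, neighbours on 1 chromosome, against distance from the start of Stat5a (x axis, kb), for CD45.1 (red) and CD45.2 (blue) cells; gene bodies and strands are drawn below. The Stat3 promoter is the tallest in both tables, and the Stat5b peak about 11 kb before Stat5a is seen in the untreated table alone.

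Stat5b, Stat5a and Stat3 lie side by side on chromosome 11 (GENCODE bodies chr11:100642045-100712038, chr11:100720665-100746483 and chr11:100746412-100800854), so the nearest start site can name a neighbour. The peak given to Stat5a at +33108 lies inside Stat3, and read 31.9 ± 3.53 in CD45.1 and 31.4 ± 4.78 in CD45.2 cells of untreated mice. Its assignment to a gene by distance is therefore uncertain, as is that of other peaks far from a start, the farthest being 96931 bp inside Jak1.

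The LPS response was read from 32 member peaks whose untreated and LPS windows overlapped by at least 50% of each, with all 12 libraries scaled together. Members were taken by their untreated name, and the LPS window of Stat6 -10912 was named for Lrp1. That site had log2 changes of 0.28 in CD45.1 (adjusted p = 0.41, DESeq2) and 0.75 in CD45.2 (adjusted p = 0.0068), and 0.16 per base of width in CD45.2. Treatment and table coincide, since untreated and LPS libraries were counted over separate peak sets, so the effect of LPS and that of the table cannot be told apart. LPS windows were wider, and dividing tags by width moved the median log2 change of all peaks by -0.27 in both populations. A change passed at an adjusted p under 0.05 and over 2-fold.

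In CD45.1 cells 2 of the 32 peaks rose (6.78% of all 39235 peaks did) and 3 fell (4.93% did). In CD45.2 cells 3 rose (7.69% did) and 1 fell (3.69% did). With tags per base of width the split over all peaks was 1273 higher and 3463 lower in CD45.1, in place of 2662 and 1936, and 1697 and 2548 in CD45.2, in place of 3017 and 1446.

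An intergenic site about 10 kb upstream of Jak2 had the lowest adjusted p among members in both populations (chr19:29316116-29316220 untreated, chr19:29316103-29316284 after LPS). CD45.1 cells read 3.73, 9.80 and 17.9 in untreated and 42.2, 46.6 and 70.0 in LPS-treated mice. CD45.2 cells read 5.44, 7.38 and 7.69, then 47.9, 56.9 and 40.3. Every LPS library was above every untreated library. The log2 change was 2.36 (SE 0.37, adjusted p = 2.6e-08, DESeq2) in CD45.1 and 2.77 (SE 0.41, adjusted p = 8.2e-10) in CD45.2, and per base of width it was 1.57 and 1.98, adjusted p 0.00085 and 7.1e-05. This is the window printed above as Jak2 -10100, its distance in the LPS table, with 2 AP-1 matches.

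Stat3 had an intergenic site that rose as well, 12815 bp upstream (printed above as Stat3 -12826; chr11:100813606-100813732 untreated, chr11:100813581-100813779 after LPS). CD45.1 cells read 11.2, 6.12 and 5.73, then 38.7, 19.4 and 20.98. CD45.2 cells read 6.53, 12.1 and 8.79, then 17.7, 30.3 and 40.3. The groups did not overlap in either population. The log2 change was 1.81 (SE 0.44, adjusted p = 0.00074, DESeq2) in CD45.1 and 1.71 (SE 0.42, adjusted p = 0.00090) in CD45.2, and per base of width 1.16 (adjusted p = 0.043) and 1.06 (adjusted p = 0.063). In CD45.2 the adjusted p was 0.050 without CD45.2 LPS mouse 3 and 0.054 with scaling by total tags, both above the limit.

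The distal Jak2 -41674 site, higher in CD45.1 cells of untreated mice, rose in CD45.2 cells after LPS. Both comparisons use the same untreated CD45.2 libraries, so they are not independent. In CD45.2 cells the site read 2.18, 2.11 and 2.20 in untreated and 5.04, 11.4 and 8.75 in LPS-treated mice, with no overlap. The log2 change was 2.03 (SE 0.70, adjusted p = 0.028, DESeq2), and per base of width it was 1.78, without an adjusted value. The adjusted p was 0.15 without CD45.2 LPS mouse 2, and 0.055 and 0.0997 without CD45.2 untreated mouse 4 and mouse 6. The site was in 0 of the 6 lists of CD45.2 libraries, untreated and LPS, so these are few tags at a place not called a peak there. In CD45.1 cells it read 7.47, 6.12 and 12.9, then 14.1, 5.83 and 11.2, a log2 change of 0.29 (adjusted p = 0.76). The interaction, which asks whether the LPS effect differed between the populations, was -1.74 (SE 0.90, unadjusted p = 0.053), too few tags for an adjusted value, so a difference in response was not shown.

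**Figure D4:**
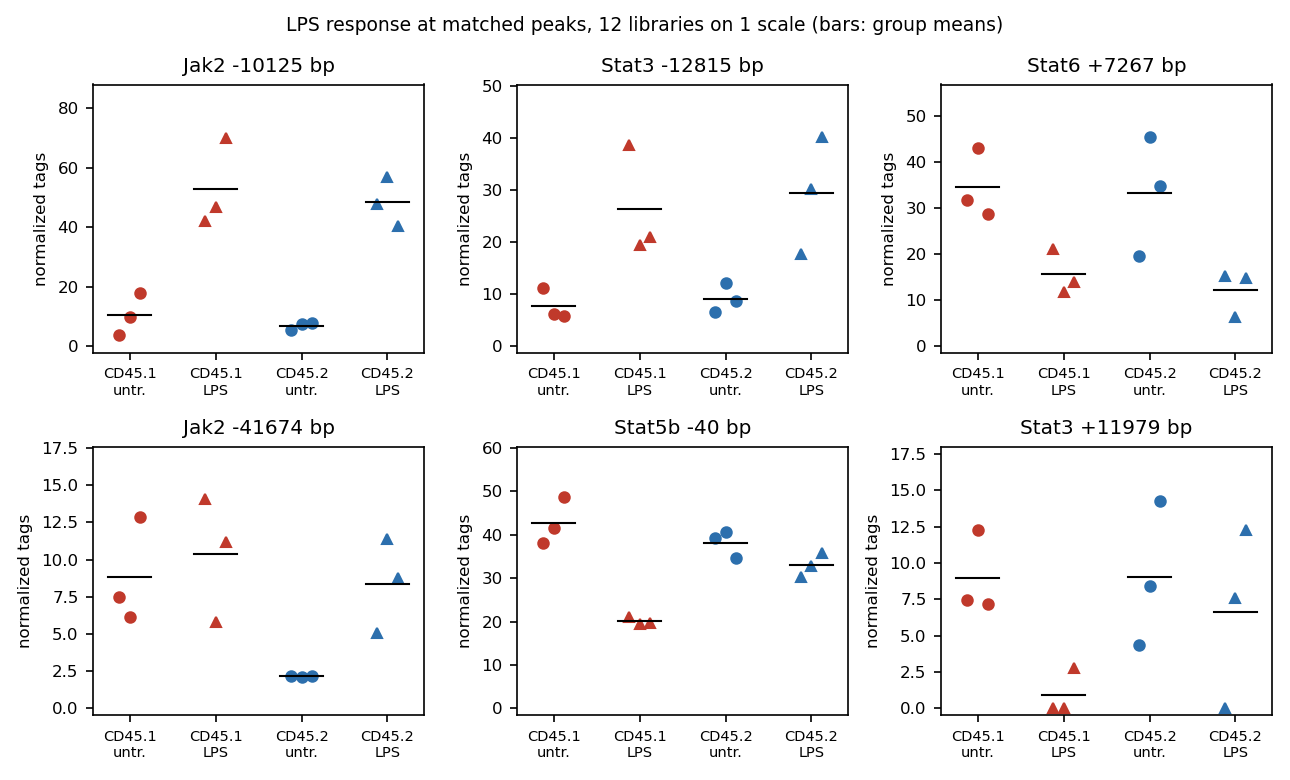
Normalized tags (y axis) at the 6 member peaks that passed the LPS test in at least 1 population, for CD45.1 (red) and CD45.2 (blue) cells of untreated (circles) and LPS-treated mice (triangles), 1 symbol per library, bars at group means. Jak2 -10125 and Stat3 -12815 rise in both populations, Stat6 +7267 falls in both, and Stat5b -40 lies between 19.4 and 21.1 in the CD45.1 LPS libraries.

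Among the losses, a site in intron 4 of Stat6, the effector of IL-4 (chr10:127087238-127087381), fell in both populations. CD45.1 cells read 31.7, 42.9 and 28.7, then 21.1, 11.7 and 13.99. CD45.2 cells read 19.6, 45.3 and 34.6, then 15.1, 6.32 and 14.9. It fell by 1.105 on the log2 scale in CD45.1 (SE 0.40, adjusted p = 0.033, DESeq2) and by 1.51 in CD45.2 (SE 0.42, adjusted p = 0.0037), and without CD45.2 LPS mouse 2 or CD45.2 untreated mouse 5 the latter adjusted p was 0.076 and 0.080. The CD45.1 call was lost without CD45.1 LPS mouse 2 or 3, CD45.1 untreated mouse 4 or 5, or CD45.2 untreated mouse 6 (adjusted p from 0.050 to 0.15), with total tags (0.17) and per base of width (0.052). The Stat6 promoter had log2 changes of -0.67 (adjusted p = 0.044) and -0.86 (adjusted p = 0.0086), under the 2-fold limit, but per base of width it passed as lower in both populations, at -1.01 (adjusted p = 0.0010) and -1.20 (adjusted p = 9.5e-05). Per base of width the Stat5a +33108 site also passed as lower in CD45.1 (-1.11, adjusted p = 0.043), and the Jak1 +92332 site in CD45.2 (-1.09, adjusted p = 7.7e-05).

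The downstream Stat5b promoter (chr11:100683871-100683978) read 38.0, 41.6 and 48.7 in CD45.1 cells of untreated and 21.1, 19.4 and 19.6 of LPS-treated mice, without overlap. It fell by 1.08 on the log2 scale (SE 0.32, adjusted p = 0.0061, DESeq2), and by 0.98, under the 2-fold limit, without CD45.1 untreated mouse 6. With total tags the adjusted p was 0.059. In CD45.2 cells it read 39.2, 40.6 and 34.6, then 30.3, 32.9 and 35.9, a log2 change of -0.18 (adjusted p = 0.73). The interaction was -0.90 (SE 0.42), with an unadjusted p of 0.033 and an adjusted p of 0.77. The upstream Stat5b promoter had log2 changes of -0.90 (adjusted p = 0.042) and -0.61 (adjusted p = 0.20).

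A site in intron 1 of Stat3 (chr11:100788826-100788924) had 42 tags in untreated and 2 in LPS libraries of CD45.1 cells, a ratio of 0.106 after scaling (95% counting interval 0.0124 to 0.407; DESeq2 adjusted p = 0.033). In CD45.2 cells it had 46 and 20 tags, a ratio of 0.865 (0.485 to 1.49). The interval covers counting error only, and without CD45.1 LPS mouse 1 the adjusted p was 0.13. Per base of width the log2 change in CD45.1 was -3.49 without an adjusted p. Several other alternatives gave no adjusted p for this site either, so the call could not be checked in them.

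No member passed the interaction test, as against 0.245% of all 39235 peaks, of which 27825 had an adjusted p and could pass. DESeq2 gave 2 members an unadjusted p under 0.05, the Stat5b promoter and the Stat3 intron site, and edgeR gave 3 and adjusted none below 0.05. For 8 of the 32 peaks DESeq2 gave no adjusted value. Of the kinases, Jak1 had 2 intergenic sites with changes under the 2-fold limit. At -27888 the log2 change was 0.88 in CD45.1 (adjusted p = 0.0071, DESeq2) and 0.87 in CD45.2 (adjusted p = 0.012). At -26911 it was 0.94 (adjusted p = 0.00042) and 0.43 (adjusted p = 0.17), but 0.18 and -0.32 per base of width. The promoters of Tyk2 and Stat2 lay between 0.09 and 0.32 in both populations and between -0.54 and -0.04 per base of width, so their direction depends on the scaling.

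The Stat3 and Jak2 promoters and a Jak1 intron site, +82336, were left out by the 50% rule, since their windows differed between the tables (117 and 257 bp for Stat3, 263 and 130 bp for the Jak1 site). Under any overlap, the Stat3 promoter had log2 changes of 0.49 in CD45.1 (adjusted p = 0.023, DESeq2) and 1.02 in CD45.2 (adjusted p = 4.6e-08). Its LPS window was the wider, and its change per base of width was not computed. A more open promoter and a wider window therefore cannot be told apart there. The Jak2 promoter had -0.51 (adjusted p = 0.057) and -0.81 (adjusted p = 0.0018). The Jak1 site had -0.67 (adjusted p = 0.25) and -1.68 (adjusted p = 0.0014). With the Stat3 promoter, counted as higher over its wider window, 2 more members thus passed over 2-fold in CD45.2.

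Genes that work with the members were counted by their summed peaks, and the small counts show nothing particular to these lists beside the shares of all genes. Among 21 cytokine receptors that signal through STATs, 1 passed as higher in CD45.1 and 1 as higher in CD45.2 in untreated mice, where 14.8% of all gene sums passed. These were Il4ra, the receptor chain for IL-4 and IL-13 upstream of STAT6 (442.2 in CD45.1 and 327.7 in CD45.2; log2 fold change 0.43, adjusted p = 0.0020, DESeq2), and Il12rb2, an IL-12 receptor chain upstream of STAT4 (78.9 and 121.4; -0.63, adjusted p = 0.038). After LPS, where 7.07% of all gene sums passed, 1 and 1 passed again, Il7r, which signals to STAT5 (163.1 in CD45.1 and 81.8 in CD45.2; 1.02, adjusted p = 0.0011), and Ifngr2, a chain of the interferon-gamma receptor (97.6 and 160.4; -0.70, adjusted p = 0.014).

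Of 16 tested SOCS, PIAS and phosphatase genes, which damp JAK-STAT signals, 0 passed in either table. Socs2, an inhibitor induced by STAT5, averaged 23.4 in CD45.1 and 42.8 in CD45.2 cells of untreated mice (log2 fold change -0.86, adjusted p = 0.065, DESeq2). Among 11 other partners, Pim1, a kinase gene that STATs switch on, passed in untreated mice, with 560.9 in CD45.1 and 349.1 in CD45.2 cells (log2 fold change 0.68, adjusted p = 7.0e-05, DESeq2). None of the 10 tested passed after LPS.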

How the data were processed

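Per the labels and the methods of the study, brain macrophages were sorted and profiled by ATAC-seq. The submitters' processing notes name bcl2fastq 2.17.1.14, Bowtie2, Picard 1.108 and HOMER. Whether read ends were shifted for the transposase is not given in the sources used here. The values the authors deposited in the 2 merged tables are estimated counts (expected counts): tags per merged peak, not normalized, in steps of 0.5. In the peak list of each library the authors deposited a fold ratio over the local background and a HOMER score. The fold ratio and the score were not used in a test here, and the lists served to count in how many libraries a peak was listed. Coordinates are mm9, the build of the reference used here (GENCODE vM1), and no peak passed the end of its chromosome.

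Counts were rounded and peaks with more than 10 tags in at least 1 library tested with DESeq2 1.42.0 in R 4.3.3 (Wald test, Benjamini-Hochberg over all peaks or genes of a table), in each table alone for CD45.1 against CD45.2 and in a 12-library model over 39390 matched peaks for LPS and the interaction, of which 39235 were tested. Intervals are 1.96 SE on either side and, like every p, cover 3 mice per group. edgeR 4.0.16 and the other alternatives are in the closing section. The fits were tested on simulated data with known changes. Named in each table were each member's promoter peak with the highest mean and its peak with the lowest adjusted p, and every member peak that met the 4-fold rule or passed the LPS or interaction test; of each list of other genes at most 4 were named, by adjusted p. Other peaks in the text were chosen after their values were seen. The members, lists and limits were chosen with earlier results of these data known.

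The mouse numbers are the replicate numbers in the sample titles. CD45.1 and CD45.2 libraries with the same number were read as a pair from the same animal. Deviations of the pairs from their group means correlated at 0.0821, 0.0762 and 0.0897 in mice 4, 5 and 6 and at -0.064, 0.0591 and 0.149 in mice 1, 2 and 3. The replicate block was therefore run as an alternative, the study's methods naming none.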

Additional observations from a re-analysis of the deposited data

How the results depend on the processing

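Results were recomputed with edgeR, with scaling by total tags, without the filter, with the replicate block, without each library in turn, with peaks within 100 kb of a start, with any overlap between tables and, chosen after seeing the data, with tags per base of peak width. Of 790 alternatives for single peaks and gene sums 759 kept their side of the threshold. Among these, 36 changed sign where neither setting passed. The call was lost in the same direction in 31, and 0 reversed a call. Every loss was at a value that passed in the main fit, whereas the 790 also cover values that did not pass there. In 67 more alternatives the adjusted p was undefined. The count of members higher in CD45.1 of untreated mice by the 4-fold rule was 1 and became 0 with total tags and with the replicate block, and 0 to 1 without 1 library. At an adjusted p under 0.05 it was 3, became 1 with total tags, and was 0 to 2 without 1 library; the replicate block ended the call of Jak2 -41674 (adjusted p = 0.15) and changed no other call at that limit. Members that fell in CD45.1 after LPS were 3, 0 with total tags and 1 to 3 without 1 library. Members that rose in CD45.2 were 3, 4 with any overlap, 1 with total tags, 1 with tags per base of width and 1 to 3 without 1 library. Members that fell in CD45.2 were 1, 2 with any overlap, 3 with tags per base of width and 0 to 2 without 1 library. The cause of these shifts was not tested. Counts of 0 after LPS between populations, in gene sums and in the interaction stayed 0 under each alternative run. The lower depth of the LPS libraries limits what could be detected there.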
